A study of Mus musculus with 6 samples.

Results

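Among the genes that NK cells use to signal to other cells, 10 were followed here, chosen by name as cytokine and chemokine genes made by NK cells and taken from the 25690 gene symbols of the series. They are the effector cytokine genes Ifng, Tnf, Lta and Csf2, the chemokine genes Ccl3, Ccl4, Ccl5 and Xcl1, and the regulatory cytokine genes Tgfb1 and Il10. The RNA came from CD27SP NK cells, which are the CD27-positive and CD11b-negative cells that stand early in NK cell maturation, after sorting from the BM of mice in which Myc was deleted in NK cells and of controls. The question of the comparison is what the loss of Myc does to the transcripts of immature NK cells. There were 3 libraries of Ncr1cre Myc fl/fl mice and 3 of Ncr1cre Myc wt/wt mice, and the replicate numbers are 1, 2 and 4 in each genotype. Both genotypes carry Ncr1cre, so the controls express the same Cre recombinase and differ in the Myc alleles. Cre is expressed from the Ncr1 locus, which encodes NKp46, and therefore acts once a cell has begun to express that receptor. Cells that enter the gate before or without NKp46 would keep Myc. The mice are described as sex- and age-matched on a C57BL/6 background, the age of each is not in the labels, and the labels name no stimulus of the sorted cells. Nothing in the labels says whether a library is 1 mouse, so the p-values measure the spread between these libraries, part of which may be technical.

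NK cells are innate lymphocytes that kill infected or transformed cells and release cytokines within hours of activation. Interferon gamma and TNF activate macrophages and other target cells, lymphotoxin alpha is a close relative of TNF, and GM-CSF, the product of Csf2, acts on myeloid cells. Ccl3, Ccl4 and Ccl5 attract leukocytes through chemokine receptors, and Xcl1 attracts cross-presenting dendritic cells through XCR1. Resting NK cells already hold transcripts of several of these genes, and many of the mRNAs carry AU-rich elements in the 3′ UTR, through which RNA-binding proteins of the Zfp36 and other families shorten their half-life. TGF-β1, which is secreted in a latent form, and IL-10 restrain immune responses.

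The tables hold an estimated count and a TPM value for each transcript. Counts were summed by gene symbol and compared in edgeR with the replicate number as a block. CPM is counts per Mio after TMM normalization, TPM is transcripts per Mio and takes the length of a transcript into account, and the threshold was an adjusted p below 0.01 together with a log2 fold change of 0.5 or more in either direction. Estimated counts summed to 8.1 Mio in wt/wt replicate 1 and to between 54.6 and 65 Mio in the other libraries, so wt/wt replicate 1 is the least precise, and 3 counts correspond to 0.37 CPM in it against 0.0462 to 0.055 CPM in the others. Myc was at 164 to 200 CPM in wt/wt and 61.5 to 76.5 CPM in fl/fl libraries (log2 fold change −1.44 ± 0.15 (SE, n = 3 per genotype), adjusted p = 0.00189 in edgeR), so each library matched its label. The defining NK genes Ncr1 (723 to 1016 CPM) and Klrb1c (1555 to 2230 CPM) were high in every library, Cd27 was at 225 to 278 CPM, and Itgam, which encodes CD11b, at 34.6 to 46.8 CPM. Cd3e reached 38.1 to 110 CPM, and its genotypes overlapped.

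Of the 10 genes, 9 had enough counts for a test, and Il10 had not. Tnf and Ccl4 rose past the threshold in Ncr1cre Myc fl/fl cells and none of the tested genes fell past it. At an adjusted p below 0.05 without a limit on the fold change, 5 were higher (Tnf, Ccl4, Lta, Csf2 and Ccl3) and 1 was lower (Ccl5). Among all 15474 tested genes, 1.28% were higher and 0.872% lower past the threshold, and 4.45% were higher and 3.38% lower at an adjusted p below 0.05. For the count of 0 lower genes, 1 had an unadjusted p below 0.05 in edgeR, 1 passed the threshold in DESeq2 and 0 in limma-trend. Higher past the threshold were 5 in DESeq2 and 2 in limma-trend. All fl/fl libraries lay above all wt/wt libraries for 6 of the 9 genes and below them for 1, against 16.2% and 15.1% of all tested genes. Ifng and Tgfb1 overlapped between genotypes. The log2 fold change was above 0 for 8 of the 9 genes, and its median over the 9 was 0.69, beside 0.01 over all tested genes. These 10 genes are few and were chosen by name, so nothing beyond the single genes is read from the median. In bulk RNA, a change in the number of cells that hold a transcript and a change in the amount per cell cannot be told apart.

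**Figure D1:**
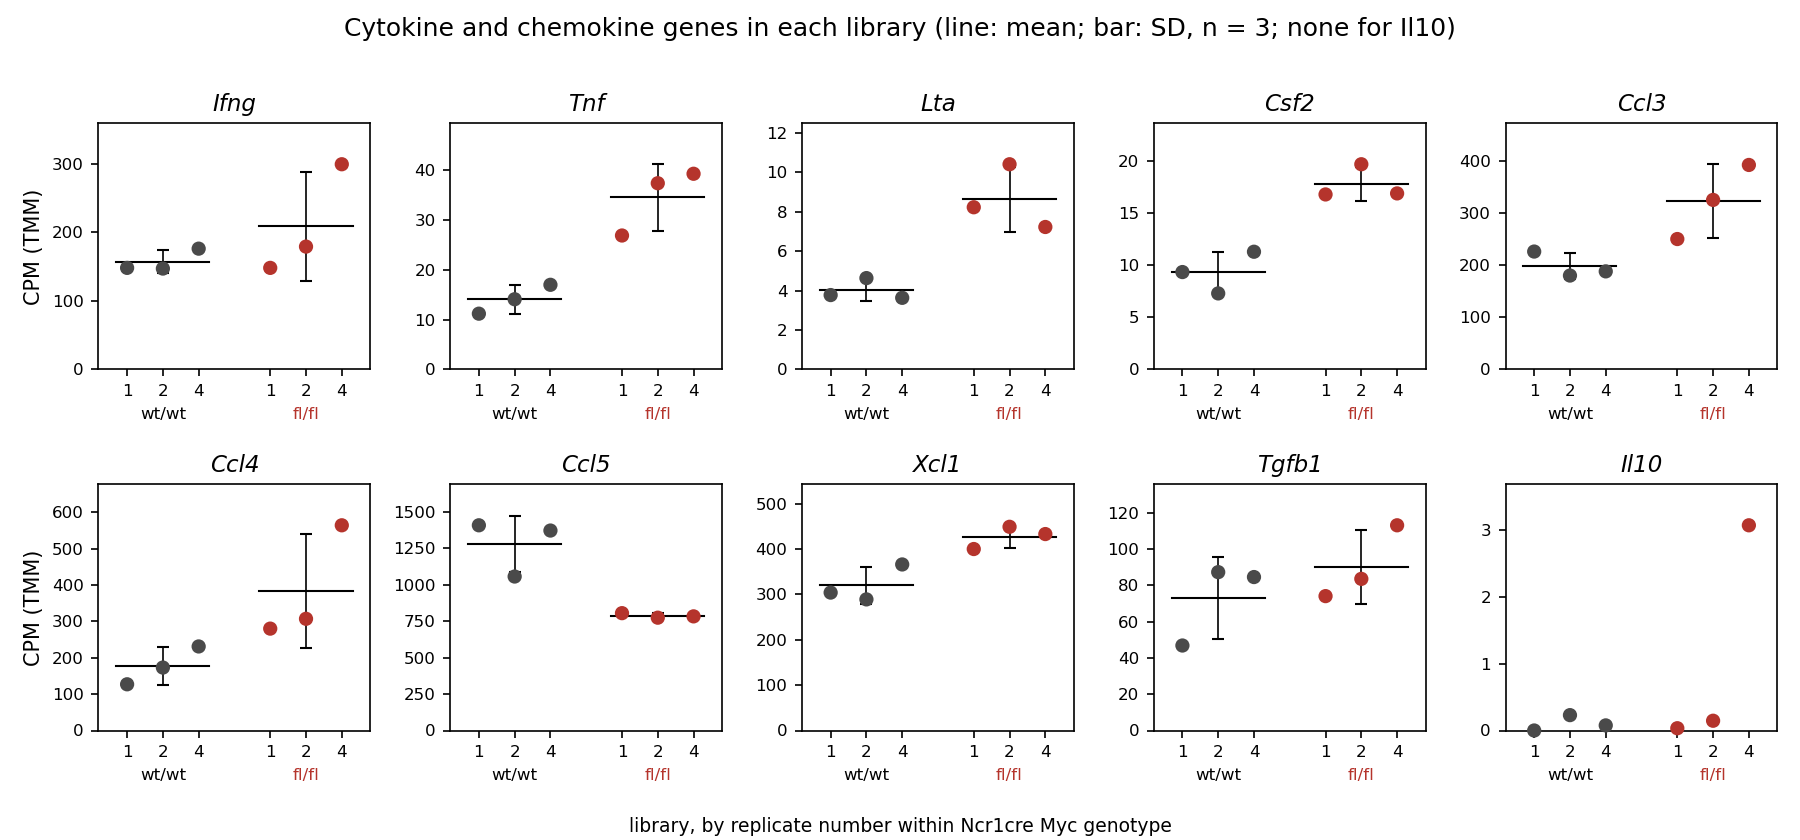
Each panel plots the normalized counts (CPM after TMM, vertical axis from 0) of 1 gene in each library, with wt/wt libraries in grey, fl/fl libraries in red, and the replicate number on the horizontal axis. The line is the mean and the bar the SD of 3 libraries. Tnf, Lta, Csf2, Ccl3, Ccl4 and Xcl1 have every red point above every grey point, Ccl5 has every red point below, Ifng and Tgfb1 overlap, and Il10 is drawn without a mean because its counts lie almost wholly in fl/fl replicate 4.

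Tnf (ENSMUSG00000024401.14) lies on the minus strand of chromosome 17 of GRCm38 from 35199381 to 35202007 and encodes the cytokine TNF. It was at 11.2, 14.1 and 17.0 CPM in wt/wt replicates 1, 2 and 4 and at 26.9, 37.4 and 39.3 CPM in fl/fl replicates 1, 2 and 4. The lowest fl/fl library was thus above the highest wt/wt library, and the means were 14.1 ± 2.9 and 34.5 ± 6.7 CPM (SD, n = 3 each). The log2 fold change was 1.30 ± 0.17 (SE), with a 95% interval of 0.92 to 1.67 and an adjusted p of 0.00348 in edgeR. The ratios of libraries with the same number were alike, at log2 1.26, 1.41 and 1.21 for replicates 1, 2 and 4. Fits without the replicate number as a block gave 1.27 on all 6 libraries (adjusted p = 0.0061 in edgeR), and each fit that left out 1 library was made without the block as well. Leaving out any 1 library in this way, or 1 replicate number with the block kept, held the log2 fold change between 1.14 and 1.43, but the adjusted p then rose above 0.01 (to between 0.0128 and 0.0272) in all of these fits except the one without replicate 4. Nearly all of the signal came from Tnf-201, the coding transcript of 4 exons.

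Lta (ENSMUSG00000024402.5), the gene of lymphotoxin alpha, is the next expressed gene upstream, on the same strand of chromosome 17 from 35203165 to 35205351, and 1158 bases separate it from Tnf. It was at 3.77, 4.63 and 3.63 CPM in wt/wt and 8.22, 10.4 and 7.22 CPM in fl/fl replicates 1, 2 and 4. Every fl/fl library was above every wt/wt library, although the wt/wt value of replicate 1 rests on only 29 counts. Its log2 fold change of 1.09 ± 0.24 was like that of Tnf, but the adjusted p of 0.0256 in edgeR missed the threshold. Ltb, the neighbour on the other side of Tnf and the gene of lymphotoxin beta, was at 188 to 271 CPM in wt/wt and 228 to 293 CPM in fl/fl libraries, with a log2 fold change of 0.18 ± 0.17 (adjusted p = 0.604 in edgeR). Thus of the 3 adjacent genes, Tnf and Lta had fold changes of over 2 by their means (2.45 and 2.15) and the ranges of Ltb overlapped. The 250 bases before the RefSeq start sites of Tnf and Lta (build GRCm38.p6, minus strand, written 5′ to 3′, Tnf at chr17:35202008-35202257 and Lta at chr17:35205352-35205601) are shown because the pair is adjacent and both were higher, with every match to the 8 motifs searched in capitals.
Tnf: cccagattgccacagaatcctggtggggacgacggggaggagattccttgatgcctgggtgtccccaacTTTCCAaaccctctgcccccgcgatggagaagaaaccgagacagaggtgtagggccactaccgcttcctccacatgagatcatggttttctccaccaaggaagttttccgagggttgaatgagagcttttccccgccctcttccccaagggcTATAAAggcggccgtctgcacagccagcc
Lta: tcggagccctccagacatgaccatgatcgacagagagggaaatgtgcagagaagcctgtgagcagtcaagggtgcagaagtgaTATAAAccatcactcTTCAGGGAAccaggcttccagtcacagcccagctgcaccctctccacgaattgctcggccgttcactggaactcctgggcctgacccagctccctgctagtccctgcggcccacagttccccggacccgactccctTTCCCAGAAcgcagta
The letters searched on both strands were CACGTG, the E-box at which Myc binds with Max, then TGANTCA for AP-1 and its relatives, the cyclic AMP element TGACGTCA, the Egr family letters GCGNGGGCG, the NF-κB letters GGANTTTCC, the STAT letters TTCNNNGAA, the NFAT core TGGAAA, and, for the box of the core promoter, TATAAA. The Tnf window holds TGGAAA on the opposite strand, starting 181 bases before the start site, and the core promoter box 29 bases before it. The Lta window holds the STAT letters at 152 and 16 bases and the letters TATAAA at 167 bases before the start site, farther from it than in Tnf. Of all 32851 promoters in the table, 18.6% hold the NFAT core, 7.02% the STAT letters and 12.4% the letters TATAAA in the same window. These matches are thus common. The E-box letters, found in 6.02% of all promoters, were in none of the 7 windows of members in the table (Ifng, Tnf, Lta, Csf2, Ccl3, Xcl1 and Tgfb1), and Ccl4, Ccl5 and Il10 were not among its entries. The RefSeq start site of Csf2 lies 232 bases upstream of its start in the GENCODE annotation. The bases next to that GENCODE start were therefore not searched. A match is a run of letters and not a site shown to be bound, and the missing letters say nothing of binding outside the window.

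Csf2 (ENSMUSG00000018916.5; chromosome 11, minus strand, 54247271 to 54249667), the gene of GM-CSF, was at 9.35, 7.3 and 11.3 CPM in wt/wt and 16.8, 19.7 and 16.9 CPM in fl/fl replicates 1, 2 and 4. The genotypes did not overlap and the means were 9.3 ± 1.98 and 17.8 ± 1.65 CPM (SD, n = 3 each). Its log2 fold change was 0.96 ± 0.23, with an adjusted p of 0.0329 in edgeR. The gap was widest between the libraries numbered 2 (log2 ratio 1.43) and narrowest between those numbered 4 (0.59).

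Ifng (ENSMUSG00000055170.4; chromosome 10, plus strand, 118441046 to 118445892), the signature cytokine of NK cells, was at 148, 147 and 176 CPM in wt/wt and 148, 179 and 299 CPM in fl/fl replicates 1, 2 and 4. Replicate 1 had the same level in both genotypes, and only fl/fl replicates 2 and 4 exceeded every wt/wt library. Its log2 fold change was 0.36 ± 0.16, with a 95% interval of −0.01 to 0.72 and an adjusted p of 0.237 in edgeR. Without the block the log2 fold change was 0.41, and it was 0.07 when fl/fl replicate 4 was left out as well, so that most of the difference rests on that library. With the block kept and both libraries numbered 4 left out, it was 0.13. Interferon gamma mRNA was thus not shown to change, and the interval leaves room for a rise of up to 0.72 on the log2 scale. Gm49751, an annotated gene on the same strand from 118441419 to 118444140, lies inside Ifng and had 25.3 to 33.2 CPM in wt/wt and 26.6 to 39.4 CPM in fl/fl libraries. Its log2 fold change was 0.06 ± 0.21 (adjusted p = 0.918 in edgeR), and reads of intron-containing Ifng RNA can be counted for it. The retained-intron transcript Ifng-202 held 5.09% to 9.58% of the Ifng TPM over all libraries.

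The chemokine genes split by direction. Ccl4 (ENSMUSG00000018930.3; chromosome 11, plus strand, 83662584 to 83664683), which encodes MIP-1β, was at 127, 173 and 231 CPM in wt/wt and 280, 307 and 564 CPM in fl/fl replicates 1, 2 and 4. Every fl/fl library was above every wt/wt library, and fl/fl replicate 4 stood highest. For the genotype effect, the log2 fold change was 1.08 ± 0.14, with a 95% interval of 0.76 to 1.41 and an adjusted p of 0.00387 in edgeR. In the fit without the block its adjusted p was 0.0354 at a log2 fold change of 1.11, and over all alternatives the adjusted p ran from 1.09e-09 to 0.105. Still without the block, leaving out fl/fl replicate 4 gave a log2 fold change of 0.73 with an adjusted p of 0.0921, and leaving out wt/wt replicate 1 gave 0.91 with an adjusted p of 0.105. With the block kept, the fit without replicate number 4 gave 0.96 (adjusted p = 0.0111 in edgeR) and the fit without number 1 gave 1.06 (0.0176).

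Ccl3 (ENSMUSG00000000982.5; minus strand, 83647844 to 83649355), which encodes MIP-1α, lies 13229 bases from Ccl4. It was at 226, 180 and 188 CPM in wt/wt and 250, 325 and 392 CPM in fl/fl replicates 1, 2 and 4. The genotypes did not overlap, but the libraries numbered 1 were close, with a log2 ratio of 0.14 against 0.86 and 1.06 for replicates 2 and 4. The log2 fold change of 0.69 ± 0.18 had an adjusted p of 0.0485 in edgeR and did not pass the threshold. Without replicate 1 the log2 fold change of Ccl3 was 0.96 and without replicate 4 it was 0.48.

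Ccl5 (ENSMUSG00000035042.2; minus strand, 83525778 to 83530518), the gene of RANTES and the most abundant of the 10, had the opposite sign. It was at 1406, 1055 and 1370 CPM in wt/wt and 804, 773 and 782 CPM in fl/fl replicates 1, 2 and 4. The fl/fl libraries lay close together, at 786 ± 16.3 CPM (SD, n = 3), below every wt/wt library (1277 ± 193 CPM). Its log2 fold change was −0.69 ± 0.14, with a 95% interval of −1.01 to −0.37, and the adjusted p of 0.0192 in edgeR missed the threshold, which DESeq2 passed (adjusted p = 0.000123). The adjusted p of Ccl5 ran from 0.000123 to 0.0923 over the alternatives, and its log2 fold change stayed between −0.81 and −0.63. The retained-intron transcript Ccl5-202 took 1.17%, 1.58% and 1.76% of the Ccl5 TPM in wt/wt and 2.22%, 2.37% and 2.71% in fl/fl replicates 1, 2 and 4. Its TPM values overlapped (55.2 to 88.2 in wt/wt and 69.6 to 81.4 in fl/fl), and the higher share went with a lower level of the coding transcript.

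Xcl1 (ENSMUSG00000026573.7; chromosome 1, minus strand, 164931644 to 164935527), which encodes lymphotactin, was at 304, 289 and 366 CPM in wt/wt and 400, 449 and 433 CPM in fl/fl replicates 1, 2 and 4. The genotypes did not overlap. The log2 fold change of 0.42 ± 0.14 had a 95% interval of 0.11 to 0.73, which excludes 0, but its adjusted p over all genes, 0.0982 in edgeR, missed the threshold. An annotated gene on the opposite strand, Gm20743, spans Xcl1. The strand of the reads is not used, so reads of any exon bases that the pair shares could not be told apart. Whether their exons overlap was not checked. The antisense gene Gm12223 likewise overlaps Csf2. Neither of them has a value in the tables.

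**Figure D2:**
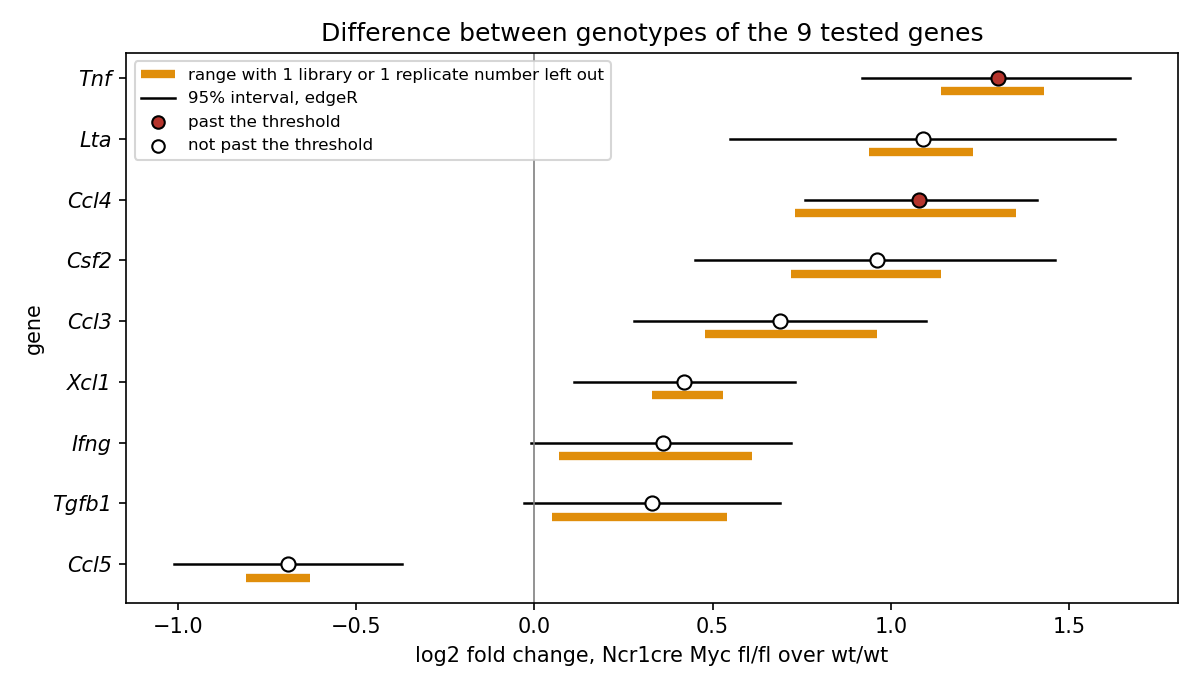
The log2 fold change of fl/fl over wt/wt (horizontal axis) is plotted for each of the 9 tested genes, with its 95% interval in edgeR as a black line and, as an orange bar, the range over the fits that leave out 1 library, made without the replicate block, or 1 replicate number, made with it. Tnf and Ccl4 are filled because they passed the threshold, Ccl5 alone lies below 0, and the bars of Ifng and Tgfb1 come close to 0, at 0.07 and 0.05.

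Of the regulatory cytokine genes, Tgfb1 (ENSMUSG00000002603.15; chromosome 7, plus strand, 25687002 to 25705077) was at 46.8, 87.2 and 84.5 CPM in wt/wt and 74.0, 83.5 and 113 CPM in fl/fl replicates 1, 2 and 4. The ranges overlapped, and the log2 fold change of 0.33 ± 0.16 (95% interval −0.03 to 0.69) had an adjusted p of 0.265 in edgeR. The lowest value belongs to the shallow wt/wt replicate 1, and without that library and without the block the log2 fold change was 0.05, against 0.30 without the block on all 6 libraries. With the block kept and number 1 left out it was 0.18. The coding transcript Tgfb1-201 held 69.9% to 86.2% of the Tgfb1 TPM, and the rest lay in Tgfb1-202, a nonsense-mediated decay form with 2.21% to 13.9%, and in retained-intron and processed noncoding forms.

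Il10 (ENSMUSG00000016529.5; chromosome 1, plus strand, 131019845 to 131024974) was close to absent from 5 of the 6 libraries. Its counts were 0, 13 and 5 in wt/wt and 2, 8 and 183 in fl/fl replicates 1, 2 and 4. It was not tested, and no difference between genotypes is read from the value of fl/fl replicate 4, the library that also stood highest for Ifng, Tnf, Ccl3, Ccl4 and Tgfb1. The same library was highest in the granule genes Gzmb (212, 186 and 166 CPM in wt/wt and 472, 358 and 1488 CPM in fl/fl replicates 1, 2 and 4) and Prf1 (616, 689 and 498 against 846, 891 and 1988 CPM). Gzmb, which encodes granzyme B, had a log2 fold change of 1.73 ± 0.37 (adjusted p = 0.0216 in edgeR), and Prf1, which encodes perforin, one of 0.93 ± 0.28 (adjusted p = 0.0771 in edgeR). The part of what these granule genes mark in the values of the cytokine genes was not tested. Without fl/fl replicate 4 and without the block, the log2 fold change was 1.18 for Tnf and 0.73 for Ccl4, against 1.27 and 1.11 without the block on all 6 libraries.

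Levels between genes were compared by TPM. In wt/wt libraries the order of the mean TPM was Ccl5 (4578 ± 519), Xcl1 (1125 ± 142), Ccl4 (472 ± 148), Ccl3 (396 ± 35), Ifng (187 ± 15.4), Tgfb1 (62.9 ± 20.7), Csf2 (18.0 ± 3.4), Tnf (12.8 ± 2.97), Lta (4.41 ± 0.801) and Il10 (0.11 ± 0.129; SD, n = 3 for each). The ranges of neighbours in this order overlapped for Ccl4 and Ccl3 and for Csf2 and Tnf, and were apart for the others. The order was kept in fl/fl libraries, where the ranges of Xcl1 (1607 ± 68.6) and Ccl4 (1086 ± 443) overlapped as well. The TPM of Ccl5 was above that of 99.9% of tested genes in both genotypes, whereas Tnf was above 53.8% of them in wt/wt and above 69.9% in fl/fl. The summed TPM of the 10 genes was 6227 to 7608 in wt/wt and 6406 to 7636 in fl/fl libraries, so the ranges of the sum overlapped. Within it, Ccl5 took 70.0%, 64.3% and 65.9% in wt/wt and 49.8%, 45.1% and 39.4% in fl/fl replicates 1, 2 and 4, and Ccl4 took 4.73%, 7.77% and 8.06% against 12.6%, 13.1% and 20.9%. These shares are tied to one another, and were not tested.

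**Figure D3:**
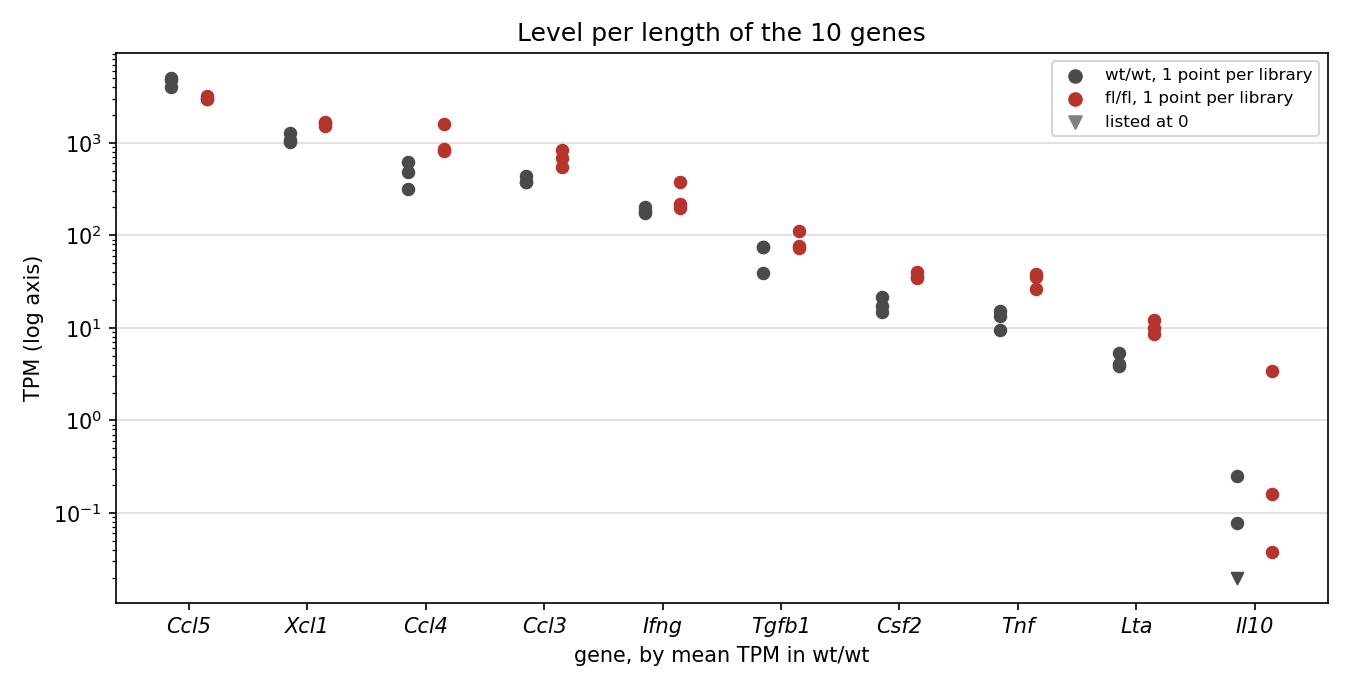
The level per length of each gene is plotted as TPM on a log axis, with 1 point per library, wt/wt in grey and fl/fl in red, and genes ordered by their mean in wt/wt. Ccl5 leads in both genotypes, at 4005 to 5016 TPM in wt/wt and 2937 to 3188 TPM in fl/fl, and Il10, at no more than 0.253 TPM in 5 libraries, reaches 3.38 TPM in fl/fl replicate 4.

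The 3′ UTRs were read for the AU-rich pentamer ATTTA and the nonamer TTATTTATT, letters of elements known to make cytokine mRNAs short-lived. In the most abundant coding transcript of each gene, the pentamer occurred 9 times in Csf2, 8 in Tnf, 6 in Ifng and in Il10, 5 in Ccl3, 3 in Lta, 2 in Ccl4, 1 in Xcl1 and in Tgfb1, and 0 times in Ccl5. Among genes with a 3′ UTR of like length (from 0.8 to 1.25 times), as many pentamers were found in 0.0739% for Csf2, 0.377% for Tnf, 0.965% for Ifng, 1.51% for Il10 and 0.547% for Ccl3, but in 11% for Lta and 12.3% for Ccl4. The nonamer was present 5 times in Tnf, 4 times in Csf2 and once in Lta, beside 6.74% of all 13755 genes read, and Ccl5 lacks both in its 199 bases. Of genes with a 3′ UTR of the length of that of Ccl5, 27.1% hold a pentamer, so its lack is the usual case. The 30 bases that hold the most pentamers are shown for the 6 genes with 3 or more, of which Tnf, Csf2 and Lta also hold the nonamer and Ifng, Ccl3 and Il10 do not. They are read 5′ to 3′ on the strand of the gene in GENCODE M21 (GRCm38), lie in the last exon, and have the pentamers in capitals.
Tnf, chr17:35199679-35199708, minus strand: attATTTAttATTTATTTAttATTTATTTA
Csf2, chr11:54247327-54247356, minus strand: tttaaatATTTATTTATTTATTTATTTAtt
Lta, chr17:35203396-35203425, minus strand: gaaaagttaagttATTTATTTAtagagaat
Ifng, chr10:118445330-118445359, plus strand: aacctATTTAttaatATTTAaaactATTTA
Ccl3, chr11:83648078-83648107, minus strand: cacttgaaattttATTTAATTTAatcctat
Il10, chr1:131024382-131024411, plus strand: acctctctccgaaatATTTAttacctctga
By pentamer count, the log2 fold changes were 0.96 for Csf2, 1.30 for Tnf, 0.36 for Ifng, 0.69 for Ccl3 and 1.09 for Lta. They were 1.08 for Ccl4, 0.42 for Xcl1, 0.33 for Tgfb1 and −0.69 for Ccl5, and Il10 was not tested. A relation of the pentamers to these values was not tested. The letters are a description, and mRNA stability was not measured in these data.

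Among the genes that encode RNA-binding regulators of cytokine mRNAs, all 14 were tested and Zfp36 was the 1 gene past the threshold in edgeR, with none lower (2 of the 14 were lower at an unadjusted p below 0.05 in edgeR, and 0 lower passed in DESeq2 or limma-trend). DESeq2 called 3 higher and limma-trend 1. Zfp36 encodes tristetraprolin, which binds AU-rich elements, Tnf mRNA among them, and is itself induced on activation. It was at 260, 347 and 416 CPM in wt/wt and 615, 842 and 972 CPM in fl/fl replicates 1, 2 and 4, with a log2 fold change of 1.25 ± 0.13 (adjusted p = 0.00189 in edgeR). Without the block its adjusted p was 0.00685 in edgeR on all 6 libraries. Leaving out any 1 library in that form gave 1.07 to 1.41, with an adjusted p of 0.013 to 0.0274 in edgeR. Zfp36 stayed past the threshold with any replicate number left out and the block kept. The genotypes were apart, and its profile over the 6 libraries was the one most like that of Tnf of all tested genes, at a Euclidean distance of 0.131 between log2 CPM values centred on their means. The next were Arhgef12 at 0.177, a gene of under 3 CPM with an adjusted p of 0.0499 in edgeR, and Sertad1 at 0.258, with a log2 fold change of 1.11 ± 0.14 (adjusted p = 0.00332 in edgeR). Of the other members, Ccl4 was nearest to Tnf, at 0.65. Zc3h12c, the second by p in the list, was at no more than 0.13 CPM in wt/wt and 0.476 to 0.837 CPM in fl/fl libraries. The median log2 fold change of the list was 0.03, beside 0.01 over all tested genes.

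Transcription factors known to act on cytokine genes were all measured, and 6 of 30 rose past the threshold in edgeR with none lower (0 lower at an unadjusted p below 0.05 in edgeR, and 0 in DESeq2 and limma-trend). DESeq2 called 9 higher and limma-trend 4, without Nfkb2 (adjusted p = 0.0141) and Fos (0.012). Without the replicate block, 4 of the 6 missed the threshold in edgeR, with an adjusted p of 0.022 for Junb, 0.0195 for Fos, 0.0126 for Nfkb2 and 0.0119 for Nr4a1. The 6 genes were the activation-induced factors Egr1, Nr4a1, Junb and Fos, the NF-κB subunit gene Nfkb2, and Irf8. Egr1 was at 48.8, 71.6 and 101 CPM in wt/wt and 190, 207 and 325 CPM in fl/fl replicates 1, 2 and 4 (log2 fold change 1.72 ± 0.14, adjusted p = 0.000773 in edgeR). Nr4a1 had a log2 fold change of 1.96 ± 0.24 and was again highest in fl/fl replicate 4, at 390 CPM against 143 and 125 in fl/fl replicates 1 and 2. Without that library and without the block its log2 fold change was 1.41, against 2.11 without the block on all 6 libraries. The log2 fold changes of Junb, Irf8, Nfkb2 and Fos were 1.61 ± 0.20, 1.28 ± 0.14, 0.98 ± 0.17 and 0.95 ± 0.16. Junb was low in wt/wt replicate 1 (322 CPM against 803 and 907), and without that library and without the block its log2 fold change was 1.15, while it was 1.31 with the block kept and number 1 left out. The remaining 24 genes, among them Tbx21 and Eomes, which encode the lineage factors T-bet and Eomes, did not pass in edgeR. The median of the 30 was 0.44.

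The receptor chains for IL-12, IL-18 and IL-15 and their signalling molecules, through which NK cells are driven to make cytokines, gave 0 genes past the threshold of 20 tested, with a median log2 fold change of 0.24. At an unadjusted p below 0.05 in edgeR, a cut that many of all tested genes passed, 10 were higher and 0 lower. DESeq2 called 2 higher and limma-trend 0. The smallest p-values were those of Mapkapk2 (131 to 144 CPM in wt/wt and 177 to 246 CPM in fl/fl, adjusted p = 0.0436 in edgeR) and Map3k8 (55.7 to 76.9 against 79.7 to 116 CPM, adjusted p = 0.0448 in edgeR). Both encode kinases known to raise TNF production, and both had non-overlapping genotypes. The IL-15 receptor chain gene Il2rb was at 2680 to 3222 CPM in wt/wt and 3851 to 4399 CPM in fl/fl libraries, with a log2 fold change of 0.47 ± 0.15 (adjusted p = 0.0852 in edgeR).

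Of the receptors for the 10 cytokines, 1 of 17 rose past the threshold in edgeR and 0 fell (0 lower at an unadjusted p below 0.05 in edgeR, and 0 in DESeq2 and limma-trend). DESeq2 called 6 higher and limma-trend 0. The gene called in edgeR was Csf2rb (adjusted p = 0.0128 in limma-trend), which encodes the signalling chain for GM-CSF, IL-3 and IL-5, at 0.13, 1.29 and 0.672 CPM in wt/wt and 6.57, 5.3 and 5.59 CPM in fl/fl replicates 1, 2 and 4. This chain is expressed by myeloid cells and basophils as well, and the median log2 fold change of the 17 genes was 0.51. Ccr1, a receptor of Ccl3 and Ccl5, was at no more than 0.266 CPM in wt/wt and at 1.58, 2.03 and 0.234 CPM in fl/fl replicates 1, 2 and 4 (adjusted p = 0.0174 in edgeR). Among genes that interferon gamma induces in responding cells, 0 of 21 tested passed (7 higher and 1 lower at an unadjusted p below 0.05 in edgeR, with 2 higher in DESeq2 and 0 in limma-trend), and their median was 0.10. The nearest were Socs1 (32.2 to 51.9 against 76.4 to 91.4 CPM, adjusted p = 0.0101 in edgeR) and Cxcl10 (7.02 to 12.9 against 14.5 to 32.2 CPM, adjusted p = 0.0105 in edgeR). For the activation and signalling of TGF-β, 0 of 16 tested genes passed (8 higher and 0 lower at an unadjusted p below 0.05 in edgeR, with 4 higher in DESeq2 and 0 in limma-trend), and the other 4 of the list were too low to test. In that list, Skil, a negative regulator of the pathway, was at 45.0 to 66.5 CPM in wt/wt and 76.0 to 93.0 CPM in fl/fl libraries (adjusted p = 0.0234 in edgeR), and Thbs1 was at no more than 0.0177 CPM in wt/wt and 0.183 to 0.603 CPM in fl/fl libraries.

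Among 39 other cytokine genes, 28 were tested, of which 4 rose and 1 fell past the threshold in edgeR, against 5 and 1 in DESeq2 and 3 and 1 in limma-trend, which did not call Il6 (adjusted p = 0.0161). Osm, which encodes oncostatin M, was at 21.6, 21.9 and 21 CPM in wt/wt and 43.9, 46.5 and 47.5 CPM in fl/fl replicates 1, 2 and 4, with little spread in either genotype (log2 fold change 1.10 ± 0.15, adjusted p = 0.00447 in edgeR). Lif rose from between 0.52 and 2.21 to between 6.29 and 10.3 CPM, and Il12a from between 2.21 and 3.74 to between 8.09 and 9.71 CPM. Il6 was listed at 0.13, 0 and 0 CPM in wt/wt and 0.987, 1.32 and 0.72 CPM in fl/fl replicates 1, 2 and 4, so it stayed a rare transcript. Mif, which encodes macrophage migration inhibitory factor, fell from 222, 177 and 167 to 89.7, 104 and 94.3 CPM (log2 fold change −0.97 ± 0.15, adjusted p = 0.00663 in edgeR). With library size only, Osm, Lif, Il12a, Il6 and Mif all missed the threshold (adjusted p from 0.0101 to 0.02 in edgeR). They missed it with offsets from effective lengths as well (0.0145 to 0.0719). Of 26 other chemokine genes, 13 were tested and Ccl6 and Ccl9 rose past the threshold, with 0 lower in edgeR, DESeq2 or limma-trend and 0 at an unadjusted p below 0.05. DESeq2 called 4 of the 13 higher and limma-trend 0, where the adjusted p was 0.0127 for Ccl6 and 0.0106 for Ccl9. Both lie in the same cluster on chromosome 11 as Ccl3, Ccl4 and Ccl5. Ccl6 was at 0.26, 1.05 and 0.748 CPM in wt/wt and 11.1, 14.7 and 2.4 CPM in fl/fl replicates 1, 2 and 4, and Ccl9 at 4.42, 1.6 and 2.05 against 10.9, 11 and 7.94 CPM. Thus within that cluster Ccl4, Ccl6 and Ccl9 rose, while Ccl5 had the only fold change below 0 among the 5.

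**Figure D4:**
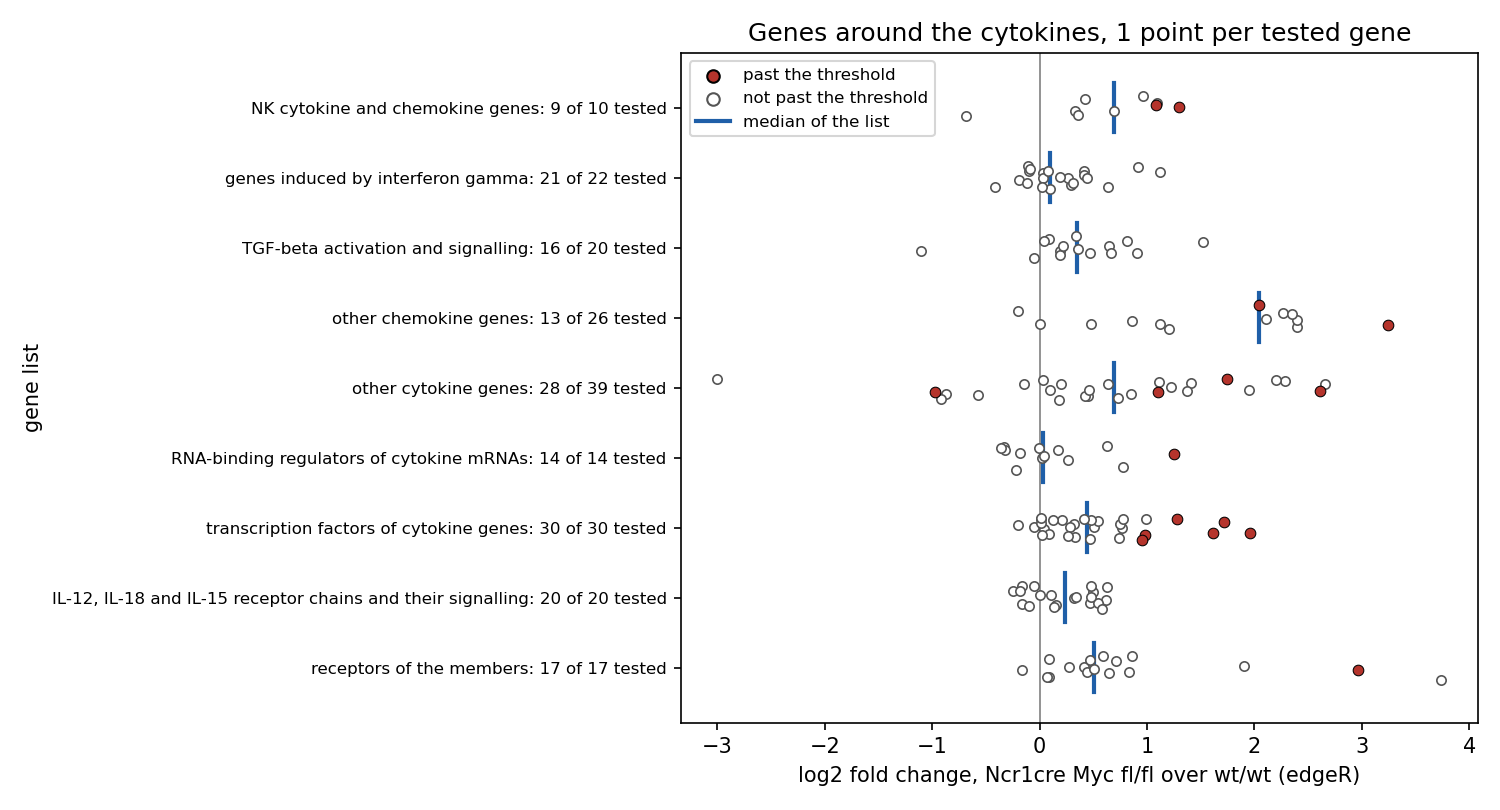
Each point is the log2 fold change (fl/fl over wt/wt, edgeR) of 1 tested gene, in rows by gene list, filled red where it passed the threshold, with the blue line at the median of the list. Only tested genes are drawn, vertical scatter within a row carries no value, and 3 genes with at most 3 counts in every wt/wt library (Il6, Zc3h12c and Thbs1) are not drawn. The list of transcription factors holds 6 red points between 0.95 and 1.96, and the list of IL-12, IL-18 and IL-15 receptors and signalling holds none.

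Markers of other cells moved with the genotype in these sorted cells, and several of those cells make the cytokines described. The cells had been sorted for NK1.1 and CD27 and against CD11b and T and B cell lineage markers, a gate that should remove T cells, B cells and mature neutrophils and monocytes, which carry CD11b. Basophil and mast cell markers summed to 15.3 to 18.8 CPM in wt/wt and to 280, 338 and 123 CPM in fl/fl replicates 1, 2 and 4, and 8 of 10 rose past the threshold, led by Prss34 (1.56 to 3.92 against 56.2 to 178 CPM) and Mcpt8 (0.52 to 1.79 against 23.8 to 67.0 CPM). Neutrophil and granulocyte progenitor markers summed to 86.0 to 141 CPM in wt/wt and 566, 543 and 907 CPM in fl/fl replicates 1, 2 and 4, and 5 of the 9 tested rose, with Mpo at 71.2 to 104 against 444 to 717 CPM. Markers of monocytes (4 of 8 rose, 1668 to 1873 against 2098 to 2386 CPM), dendritic cells (2 of 8, 181 to 194 against 326 to 381 CPM) and erythroid cells (3 of 8, 46.6 to 285 against 569 to 1188 CPM) were also higher in the summed level. Most of the monocyte sum was Ccr2 (1417 to 2019 CPM), which NK cells express too. Most of the dendritic cell sum was likewise Itgax, 1 of the 2 genes that rose (140 to 148 against 254 to 324 CPM), which NK cells also express. No marker passed the threshold in the lists of NK cells (14269 to 14989 against 15726 to 16680 CPM), ILC1s (264 to 402 against 406 to 501 CPM), T cells (390 to 767 against 473 to 616 CPM) and B cells (4.55 to 8.64 against 12 to 16.1 CPM). At an unadjusted p below 0.05 in edgeR these lists had 1, 2, 3 and 3 genes higher and 1, 0, 1 and 0 lower, and DESeq2 called 1 lower in the NK list and no other, and limma-trend none. In the list of mature NK cells, S1pr5 and Cma1 fell past the threshold while the sum, dominated by Prf1 and Gzmb, was 801 to 1068 against 1385 to 3619 CPM.

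The level of the basophil markers was lowest in fl/fl replicate 4 among the fl/fl libraries. Of the myeloid genes Ccl6 and Csf2rb, Ccl6 was likewise lowest there, at 2.4 CPM, whereas Csf2rb was at 5.59 CPM there and lowest in fl/fl replicate 2 (5.3 CPM), where the basophil sum was highest. Tnf (39.3 CPM), Ccl4 (564 CPM) and Ccl3 (392 CPM) were highest in fl/fl replicate 4, and the neutrophil and granulocyte progenitor markers were too (907 CPM). In fl/fl replicates 1, 2 and 4, Lta was at 8.22, 10.4 and 7.22 CPM and Il6 at 0.987, 1.32 and 0.72 CPM. Il12a was at 9.26, 9.71 and 8.09 CPM. Like the basophil sum, Lta, Il6 and Il12a were highest in replicate 2 and lowest in replicate 4. Csf2 (16.8, 19.7 and 16.9 CPM) was also highest in replicate 2. Lif (10.3, 6.29 and 8.19 CPM) was lowest there, and Osm (43.9, 46.5 and 47.5 CPM) was highest in replicate 4. The part of RNA from other cells in the higher values of Tnf, Lta, Csf2, Ccl3 and Ccl4, and in those of Il6, Lif, Il12a and Osm, was not tested.

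**Figure D5:**
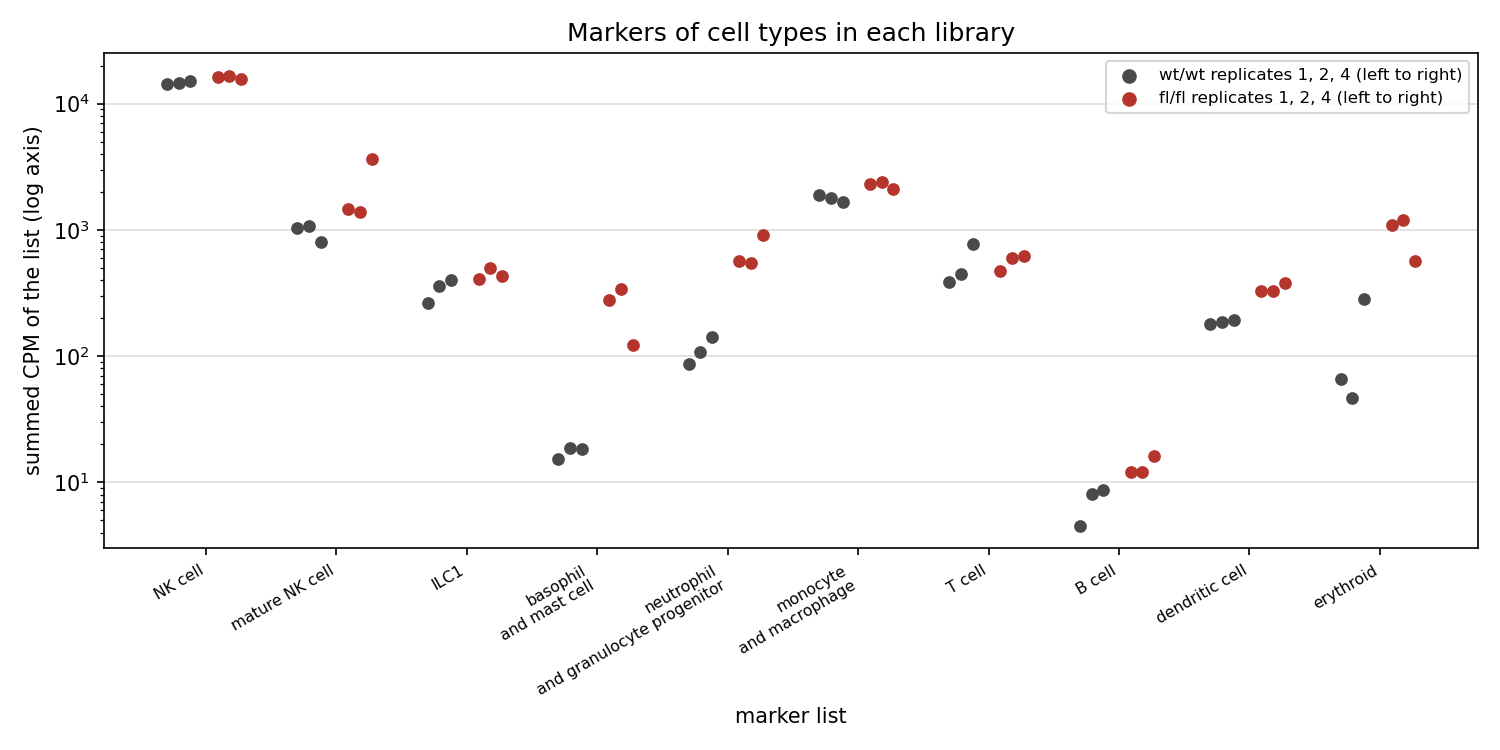
The summed CPM of each marker list (log axis) is plotted for every library, with wt/wt in grey and fl/fl in red and replicates 1, 2 and 4 from left to right. NK cell markers lie between 14269 and 16680 CPM over both genotypes, whereas basophil and mast cell markers go from no more than 18.8 CPM in wt/wt to between 123 and 338 CPM in fl/fl, and the lowest fl/fl point is replicate 4.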

How the data were processed

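RNA-seq libraries of sorted BM CD27SP NK cells were analysed, 3 per genotype. The authors made libraries with the SMART-Seq v4 kit after polyA selection and sequenced them single end. The deposited tables hold, per transcript, an estimated count that is not normalized, a TPM value and an effective length. The methods and processing notes name Salmon and GRCh38, whereas the columns are those of kallisto and the transcripts are those of mouse. Values of overlapping or near-identical genes can be shared between them.

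Estimated counts were summed by symbol through GENCODE M21 (100239 of 100583 transcripts matched, and the others held 0.129% to 0.169% of counts) and rounded. Genes kept by filterByExpr (15474) were normalized by TMM and tested by edgeR (4.0.16, R 4.3.3) with quasi-likelihood. The replicate number was a block, since the study calls its analysis paired, and p-values were adjusted by Benjamini-Hochberg over all of them. DESeq2 (1.42.0) and limma-trend (3.58.1) were alternatives. The standard error is the log2 fold change over the square root of F. Replicates differed by more than counting noise. The genes, lists and tests were chosen with earlier results of these data known. The text names the 10 genes, Myc, in each list of related genes the 2 with the smallest p and all past the threshold, the 3 most abundant markers of a cell type where their values bear on the text, defining markers, and the 3 profiles nearest to Tnf. Some items of these lists are not reported here. Gene positions are those of GENCODE M21, and promoters those of RefSeq for GRCm38.p6.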

Additional observations from a re-analysis of the deposited data

How the results depend on the processing

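Each fit that left out 1 library was also made without the replicate block, so it compares with the fit without the block on all 6 libraries, whereas fits with a number left out kept the block. The direction of all 9 tested genes was the same under every alternative, and no result reversed. Tnf missed the threshold with offsets from effective lengths (log2 fold change 1.32, adjusted p = 0.0135 in edgeR) and held it in the other fits on all 6 libraries (1.27 without the block). It was 1.43, 1.21 and 1.18 without fl/fl replicates 1, 2 and 4, 1.14, 1.27 and 1.43 without wt/wt replicates 1, 2 and 4, and 1.25 to 1.32 with a number left out. Ccl4 missed it with library size only (1.10), effective length offsets (1.10) and no replicate block (1.11). It was 1.29, 1.25 and 0.73 without fl/fl replicates 1, 2 and 4, 0.91, 1.10 and 1.35 without wt/wt replicates 1, 2 and 4, and 0.96 to 1.22 with a number left out. DESeq2 passed Lta (1.09), Csf2 (0.96), Ccl3 (0.69) and Ccl5 (−0.69), as did an adjusted p below 0.05 with no limit on the fold, and testing without a filter on low counts passed Csf2 (0.97), Ccl3 (0.70) and Ccl5 (−0.67). The count of the members higher past the threshold was 2, and became 5 in DESeq2, 5 at an adjusted p below 0.05, 4 without a filter, 1 with library size only, 1 without the block, 0 with effective length offsets, 0 with any library left out and no block, and 0 to 1 with a number left out. The count of lower ones was 0, and became 1 in DESeq2, 1 at an adjusted p below 0.05 and 1 without a filter. Over all genes, 135 were lower and 198 higher. These became 548 and 645 in DESeq2, 523 and 689 at an adjusted p below 0.05, 378 and 524 without a filter, 25 and 49 with library size only, and 8 and 24 when effective lengths gave the offsets. The lower count was 78 in limma-trend and 78 under the largest adjusted p of the 3 tools. With a number left out the counts ran from 10 to 114 lower and from 49 to 162 higher. They were 11 and 31, 6 and 19, and 70 and 116 without fl/fl replicates 1, 2 and 4, and 130 and 113, 40 and 35, and 21 and 45 without wt/wt replicates 1, 2 and 4, all without the block, against 184 and 203 without it on all 6 libraries. The causes of these shifts were not tested, and the fits with libraries left out also hold fewer samples.

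The replicate number was used as a block, but equal numbers were not found to mark paired mice. The deviations of libraries with the same number from their genotype's mean correlated at −0.0121, −0.0198 and 0.0505 for replicates 1, 2 and 4 over 15474 genes, and only in replicate 4 was the best match its own number. Without the block, of the members only Tnf passed. At the depth of wt/wt replicate 1 the 29 counts of Lta and the counts of Il10 set the limit.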

Other observations

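The expressed genes next to the 10 on the chromosome were looked up as values. Outside the chemokine cluster and the Tnf region, the smallest adjusted p among these neighbours belonged to Sft2d2. Next to Xcl1, it was at 152 to 174 CPM in wt/wt and 226 to 281 CPM in fl/fl libraries (log2 fold change 0.61 ± 0.14, adjusted p = 0.03 in edgeR), a larger difference than that of Xcl1 itself. Near Il10, Mapkapk2 had a log2 fold change of 0.58 ± 0.15 (adjusted p = 0.0436 in edgeR). On both sides of Tgfb1, B9d2 (0.47 ± 0.19, adjusted p = 0.17 in edgeR) and Ccdc97 (0.42 ± 0.14, adjusted p = 0.0956 in edgeR) stood beside 0.33 ± 0.16 for Tgfb1. Mdm1, on one side of Ifng, was at 13.6 to 22.5 CPM in wt/wt and 15.3 to 19.7 CPM in fl/fl libraries, with a log2 fold change of −0.08 ± 0.19 (adjusted p = 0.858 in edgeR).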
